A study of Mus musculus with 16 samples.

Results

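The inflammasome genes examined here are 10 genes for sensors, caspases, the adaptor and cytokines, taken as every probe that names Casp1, Casp4, Pycard, Nlrp3, Nlrc4, Naip5, Naip2, Nlrx1, Il1b or Il18, older names included, out of 20467 genes that passed a filter on dim probes. They have 13 of the 41174 probes of the array, and all 10 genes and 13 probes passed the filter. The files call Nlrp3 Cias1, Nlrc4 Card12, Naip5 Birc1e, Naip2 Birc1b and Nlrx1 BC034204. The RNA came from follicular B cells, the recirculating cells of lymphoid follicles, of C.B17 mice and was hybridised to Agilent mouse arrays with 2 colours. There were 8 samples, each hybridised on 2 arrays with swapped dyes against 1 reference RNA pooled from 6 cell lines (DN3, EL4, J558, P388d, R1 and RS2). Auto.Neg (n = 2) were ATAμκTg mice, with the transgenic anti-thymocyte/Thy-1 receptor VH3609μ/Vk21-5κ on a Thy-1 knockout background. Auto.Pos (n = 2) were AGcAμκTg mice, with the anti-intestinal goblet cell receptor VH3609μ/Vk19-17κ, a light chain that another label field gives as Vkappa17-17kappa. WT (n = 2) were wild type. Non-edited and Edited (n = 1 each) were from mice with the Thy-1 knockout that carried 1 copy of the VH3609t heavy chain and 1 of the Vk21-5 light chain transgene. The labels give no age and do not state if a group's samples are separate mice. Each limma p-value therefore sets a difference against the spread between these samples within groups only. limma draws this spread towards a value shared by all genes, and the spread may be technical.

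Inflammasomes are protein assemblies of the cytosol that detect microbial products or cell damage. A sensor of the NLR family recruits the adaptor ASC, the product of Pycard, and ASC clusters and activates caspase-1, which cuts the precursors of the cytokines IL-1β and IL-18 into their secreted forms. Naip proteins bind bacterial flagellin or secretion-system proteins and hand the signal to Nlrc4, while caspase-4 (caspase-11 in older mouse literature) senses bacterial lipopolysaccharide in the cytosol. These genes are best known from macrophages, and arrays of RNA show the transcript only, not the assembly or the cleavage. In bulk RNA, a lower share of cells that carry a transcript and less transcript per cell cannot be told apart.

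Levels are given as the log2 ratio of a sample over the reference, averaged over its 2 arrays, and differences are differences of these log2 ratios. A value of 1 is 2-fold above the reference, and levels of different probes are not comparable. Slide 2 carried Auto.Neg sample 2 and Auto.Pos sample 1, and across genes these correlated at 0.978, against 0.903 within Auto.Neg, 0.904 within Auto.Pos and 0.923 within WT. On 39.0% of 20461 genes both samples of slide 2 lay outside the range of the other 6 samples, and differences inside slide 2 are therefore given beside group differences. Scan day 3 held Auto.Pos sample 2 together with WT sample 2, while Auto.Neg and WT never shared a slide or scan day. The second array of WT sample 2 was far brighter than the others, with median signals of 735 in Cy3 and 1039 in Cy5. On the other arrays these were at most 226 and 287. The values of WT sample 2, and so the differences inside scan day 3, rest in part on this array. The mean over 9 B cell markers was 4.69 to 5.58 across the samples, and that over 9 T cell markers was -3.27 to -2.47. The list of 14 macrophage and monocyte markers, among them Csf1r, Adgre1, Lyz2 and C1qa, read 1.14 and 1.98 for Auto.Neg, 1.30 and 2.08 for Auto.Pos, 1.85 and 2.20 for WT, 0.70 for Non-edited and 0.89 for Edited. Each of these 4 named markers was well above background on all 16 arrays and read above the reference in every sample. The list was mixed, since Cd68, Mrc1 and Ccr2 read below the reference in every sample and Fcgr1 lay on both sides. The rest of the list read above it, with Ly6c1 from 0.67 to 5.50. Ccr2 was well above background on 11 arrays.

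The probes that the results turn on are shown first, since they differ in what they can tell. The Casp1 and Il18 probes each lie across a gap in the genome: on mm7, the build of the files, the 60 bases of the Casp1 probe spread over 503 bases of chromosome 9 (chr9:5223467-5223969, plus strand) and those of the Il18 probe over 2129 bases (chr9:50557947-50560075, plus strand). The Pycard probes (chr7:124089285-124089344 and chr7:124089265-124089324, minus strand) share 40 bases, which are in capitals, so they are close to a repeat measurement of 1 stretch of transcript. The 3 Nlrx1 probes (chr9:44187717-44187776, chr9:44190757-44190816 and chr9:44197278-44197337, minus strand) share none and sample 3 places of the gene. The sequences are those of the deposited scanner files, written 5′ to 3′, with no capitals where no part is marked. Exon annotation on mm7 was not used here.
Casp1, A_51_P142861: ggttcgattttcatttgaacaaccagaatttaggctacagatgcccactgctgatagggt
Il18, A_51_P153565: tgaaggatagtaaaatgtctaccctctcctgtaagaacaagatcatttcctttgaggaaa
Pycard, A_51_P438821: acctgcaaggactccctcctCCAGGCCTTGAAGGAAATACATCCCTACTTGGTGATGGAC
Pycard, A_51_P438820: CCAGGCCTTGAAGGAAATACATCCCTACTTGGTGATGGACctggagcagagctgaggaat
Nlrx1, A_52_P66371: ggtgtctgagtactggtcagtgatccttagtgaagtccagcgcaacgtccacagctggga
Nlrx1, A_52_P567469: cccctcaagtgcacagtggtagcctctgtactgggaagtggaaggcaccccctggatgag
Nlrx1, A_51_P182708: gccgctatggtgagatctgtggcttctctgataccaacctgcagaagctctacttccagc

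Every one of the 13 probes was well above background in the sample channel on all 16 arrays and 0 were saturated, so transcripts that hybridise to each probe were measurable in all 8 samples. The reference channel was well above background on all 16 arrays for 10 of the probes. It was above background on 13 arrays for Nlrp3, on 11 for the Nlrx1 probe A_51_P182708 and on 2 for Il1b, so for Il1b the ratio to the reference gives only a bound on how far the B cells exceeded the cell line pool. Nlrp3, Nlrc4, Casp1, Casp4, Il1b and Il18 read above the reference in all 8 samples, and Naip5 read below it in all 8. Over the samples the widest members were Casp4, with a range of 2.47, and Nlrc4, with 2.11, and the narrowest was Pycard, with 0.87.

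**Figure D1:**
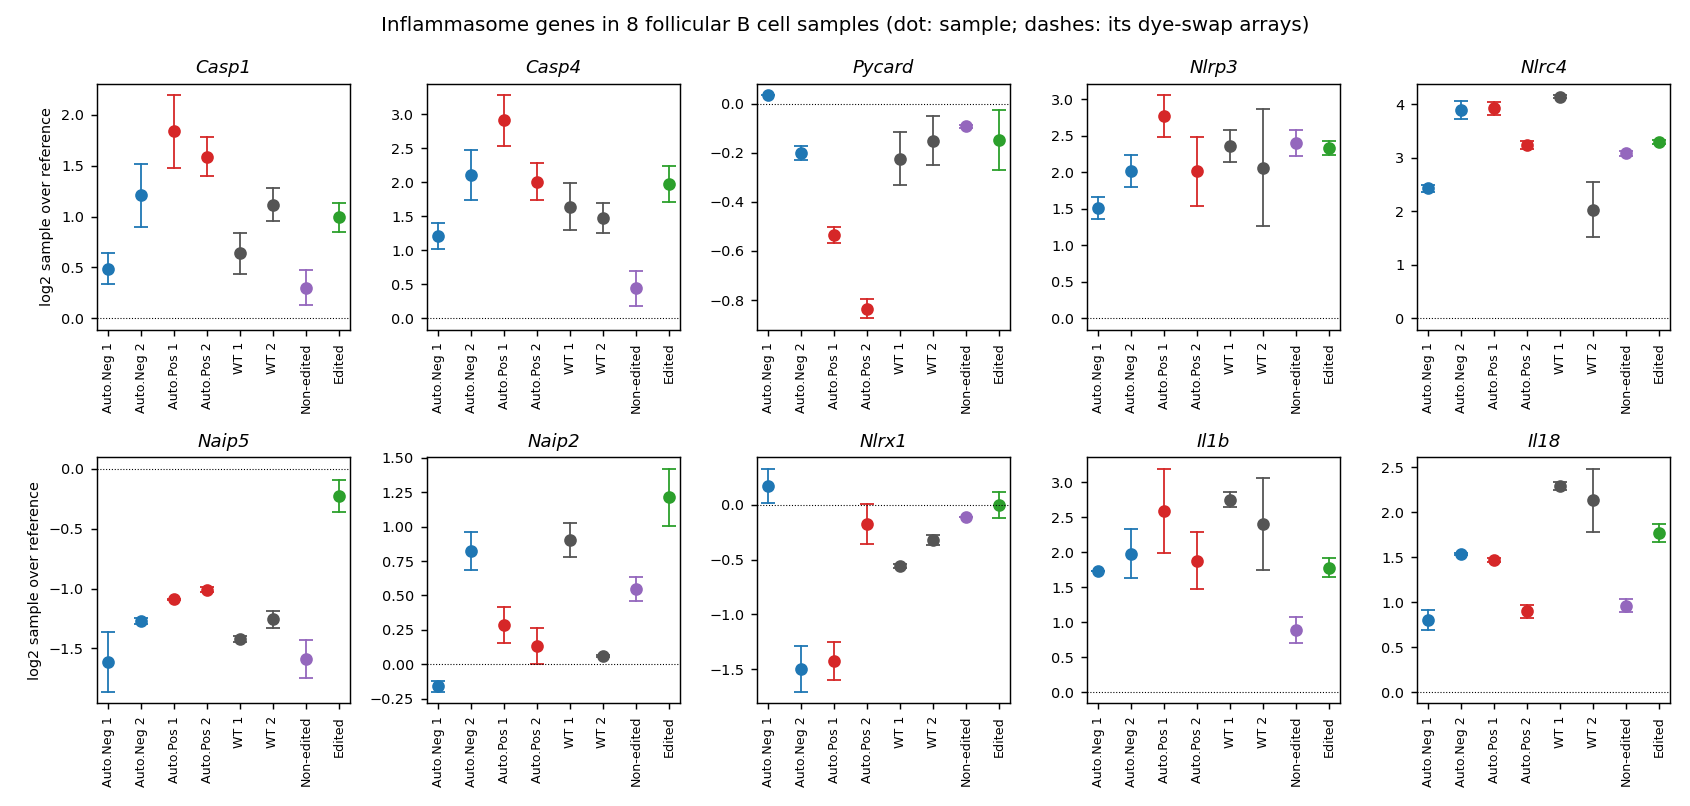
Log2 ratio of sample over reference (vertical axis) for the 10 genes in the 8 samples (horizontal axis, coloured by group). Dots are samples, dashes joined by a line are the 2 dye-swap arrays of a sample, and the dotted line marks the reference. Casp1 and Pycard show both Auto.Pos samples to one side of the others, Il18 shows both WT samples on top, and Naip5 shows Edited at -0.23 above all others.

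Among the sensors, Nlrp3, which responds to potassium loss and many forms of cell stress, read 1.51 and 2.01 for Auto.Neg, 2.77 and 2.01 for Auto.Pos, 2.35 and 2.06 for WT, 2.40 for Non-edited and 2.33 for Edited. Auto.Neg sample 1 was the lowest and Auto.Pos sample 1 the highest, and Auto.Pos and WT overlapped. The 2 arrays of a sample differed by up to 1.60 for this probe, in WT sample 2, which is more than the 1.26 between the lowest and the highest sample. Nlrc4, the partner of the Naip proteins, read 2.43 and 3.89 for Auto.Neg, 3.93 and 3.25 for Auto.Pos, 4.15 and 2.04 for WT, 3.09 for Non-edited and 3.29 for Edited. The WT samples were the highest and the lowest of all 8, so the spread inside WT (SD 1.49) exceeded every difference between groups. WT sample 2 read 2.55 on its first array and 1.52 on the second, the bright one, so its place as the lowest rests on that array. For Auto.Pos against Auto.Neg the 95% interval of the Nlrc4 difference ran from -1.74 to 2.59, so a difference of several fold in either direction was not detectable.

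Naip5, the flagellin sensor, read -1.61 and -1.27 for Auto.Neg, -1.09 and -1.01 for Auto.Pos, -1.42 and -1.26 for WT, -1.59 for Non-edited and -0.23 for Edited. The other 7 samples lay between -1.61 and -1.01 and Edited stood above them all. Naip2, which senses the rod protein of bacterial secretion systems, read -0.16 and 0.82 for Auto.Neg, 0.28 and 0.13 for Auto.Pos, 0.90 and 0.06 for WT, 0.55 for Non-edited and 1.21 for Edited. Edited was again the highest, and the 3 replicated groups overlapped throughout. The relatives Naip1 and Naip6, from the list of other sensors, read -0.26 and -0.04 for Edited, inside the ranges of the other 7 samples (-0.31 to -0.01 and -0.24 to 0.24). Naip genes are near-identical neighbours on chromosome 13, and a 60-base probe may pick up transcripts of a relative.

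Nlrx1, an NLR protein of mitochondria that restrains innate signalling, gave values that depended on the probe. Its brightest probe, A_52_P66371, read 0.17 and -1.50 for Auto.Neg, -1.43 and -0.18 for Auto.Pos, -0.56 and -0.32 for WT, -0.11 for Non-edited and 0.00 for Edited. The low values were those of the 2 samples of slide 2, which lay at least 0.87 below every other sample, a gap at least this wide being found on 1.98% of genes. The other Nlrx1 probes stayed between 0.01 and 0.40 in all 8 samples, slide 2 included. No group difference is therefore read from the brightest probe. The Nlrx1 probes lie 0.20 to 0.21 Mb from a Thy1 probe on chromosome 9, close to the gene knocked out in Auto.Neg, Non-edited and Edited. Its 2 dimmer probes differed between the 4 Thy-1 knockout samples and the 4 others by 0.08 and 0.06 (exact permutation test, two-sided p = 0.229 and 0.543).

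**Figure D2:**
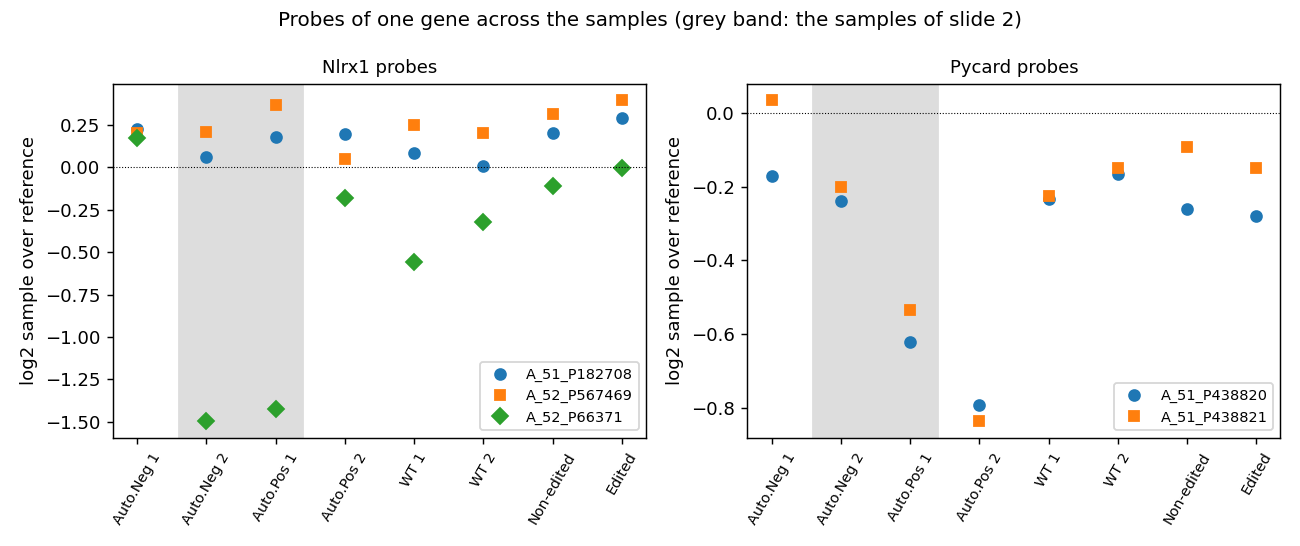
Log2 ratio of sample over reference (vertical axis) for each probe of Nlrx1 and Pycard in the 8 samples (horizontal axis). The grey band holds the samples of slide 2. Nlrx1 probe A_52_P66371 reads -1.50 and -1.43 there while its other probes stay between 0.01 and 0.40, and the overlapping Pycard probes lie within 0.21 of each other in every sample.

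Pycard, the adaptor, read 0.04 and -0.20 for Auto.Neg, -0.53 and -0.84 for Auto.Pos, -0.22 and -0.15 for WT, -0.09 for Non-edited and -0.15 for Edited. Both Auto.Pos samples were the lowest of the 8. The value of Auto.Neg sample 1 rests on 1 array, because the spot on the other array was an outlier. The overlapping probe A_51_P438820 read -0.17 and -0.24 for Auto.Neg, -0.62 and -0.79 for Auto.Pos, -0.23 and -0.17 for WT, -0.26 for Non-edited and -0.28 for Edited. It too put both Auto.Pos samples lowest, with the other 6 samples between -0.28 and -0.17 and in another order than on the first probe.

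Casp1, whose product cleaves both cytokines, read 0.49 and 1.21 for Auto.Neg, 1.84 and 1.59 for Auto.Pos, 0.64 and 1.12 for WT, 0.30 for Non-edited and 0.99 for Edited. Both Auto.Pos samples were the highest and Non-edited the lowest. Casp4, its neighbour on chromosome 9 (mm7 chr9:5253886-5253945, plus strand), read 1.21 and 2.10 for Auto.Neg, 2.91 and 2.01 for Auto.Pos, 1.64 and 1.48 for WT, 0.44 for Non-edited and 1.98 for Edited. Non-edited was the lowest here too, and Auto.Neg sample 2 lay above Auto.Pos sample 2, so these groups overlapped.

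Il1b, the gene of the cytokine IL-1β, read 1.74 and 1.98 for Auto.Neg, 2.59 and 1.88 for Auto.Pos, 2.75 and 2.40 for WT, 0.89 for Non-edited and 1.78 for Edited. WT sample 1 was the highest and Non-edited the lowest. Il18, whose cytokine drives interferon-gamma production in T and NK cells, read 0.80 and 1.54 for Auto.Neg, 1.47 and 0.90 for Auto.Pos, 2.29 and 2.13 for WT, 0.96 for Non-edited and 1.77 for Edited. Both WT samples were the highest of the 8. Both genes were spotted 10 times per array, and the SD over these spots ran from 0.05 to 0.17 for Il1b and from 0.07 to 0.14 for Il18. The 2 dye-swap arrays of a sample lay further apart than these spots, by up to 1.31 for Il1b (3.06 and 1.75 in WT sample 2) and up to 0.71 for Il18, also in WT sample 2. The SD between the samples of a group ran from 0.17 to 0.50 for Il1b and from 0.11 to 0.52 for Il18.

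Auto.Pos and Auto.Neg differ by design in receptor contact with antigen, and also in light chain and in the Thy-1 knockout. Casp1 read higher and Pycard lower in Auto.Pos, in both samples each, while none of the 10 genes passed the test over all genes. Naip5 also read higher without overlap, and Casp4 read higher on average. Nlrp3 read higher too, but its groups all but met, at 2.0099 in Auto.Pos sample 2 and 2.0091 in Auto.Neg sample 2. The 2 arrays of that Auto.Pos sample read 2.49 and 1.53. limma called 0 of the 10 members at an adjusted p under 0.05, against 3 of 20467 genes (0.0147%). At an unadjusted p under 0.05 there were 2 members, Casp1 and Pycard, against 213 genes (1.04%). The groups did not overlap for 4 of 10 members, 3 higher and 1 lower, against 19.2% of all genes (11.1% higher, 8.17% lower). The 3 higher members include Nlrp3, which was close to a tie. The median difference was 0.38 over the members and 0.02 over all genes, with 7 members higher and 3 lower.

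Casp1 averaged 1.71 ± 0.18 (SD, n = 2) in Auto.Pos and 0.85 ± 0.51 in Auto.Neg. The difference was 0.87 (SE 0.33, 95% interval 0.02 to 1.71), 1.82-fold, with a limma adjusted p of 1.00 and an unadjusted p of 0.0464. Inside slide 2 the difference was 0.63, and without Auto.Neg sample 1 it was 0.51. Pycard averaged -0.69 ± 0.21 in Auto.Pos and -0.08 ± 0.17 in Auto.Neg, a difference of -0.60 (SE 0.21, 95% interval -1.15 to -0.06, limma adjusted p = 1.00, unadjusted p = 0.0354), 1.52-fold lower. It was -0.50 on the overlapping probe and -0.33 inside slide 2. Adaptor and caspase thus lay in opposite directions in these samples.

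Nlrp3 differed by 0.63 (SE 0.35, limma adjusted p = 1.00), with 0.76 inside slide 2, 0.25 without Auto.Pos sample 1 and 1.01 without Auto.Pos sample 2. Naip5 differed by 0.39 (SE 0.21, limma adjusted p = 1.00), with 0.18 inside slide 2 and 0.22 without Auto.Neg sample 1. Neither difference passed the test. The remaining 6 members differed by -0.14 to 0.80, and each overlapped between the groups. The Il18 difference was 0.01, with a 95% interval from -0.86 to 0.89. The groups also differ in light chain and in the Thy-1 knockout, and these cannot be told apart from antigen contact. Auto.Neg sample 1 and Auto.Pos sample 2 lay on different slides and scan days.

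**Figure D3:**
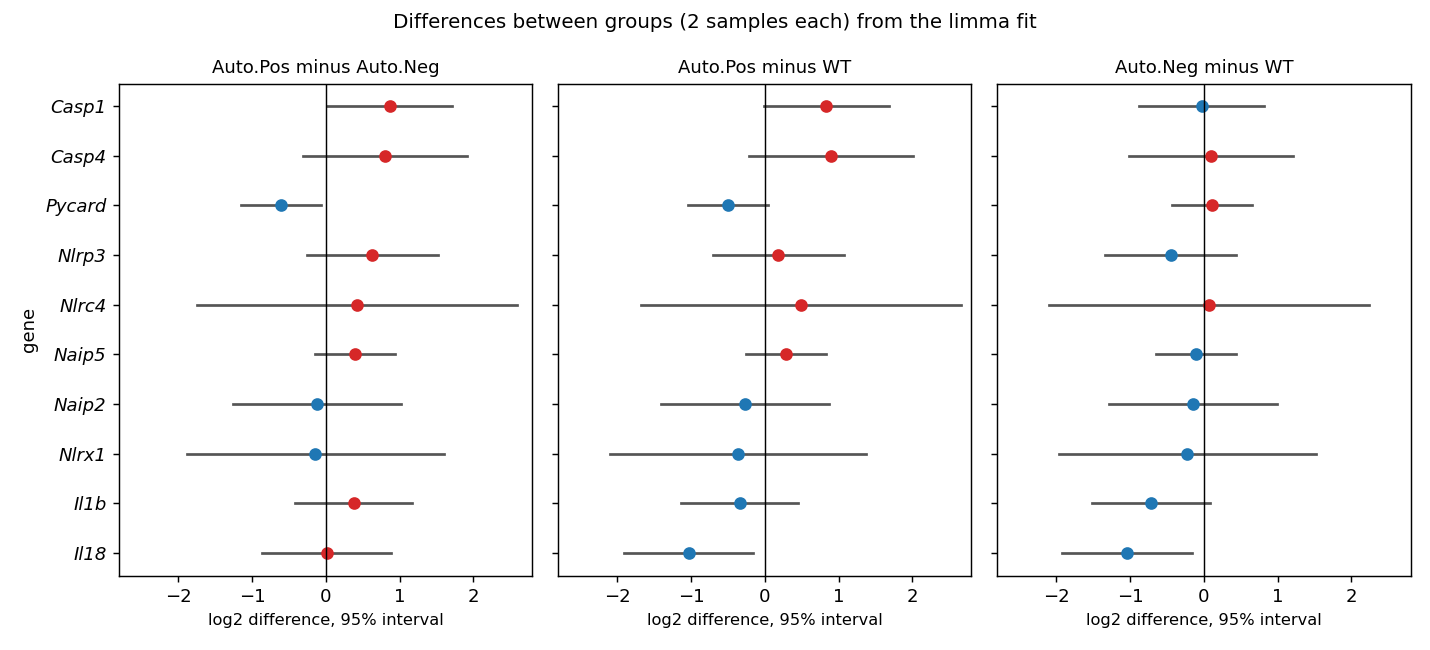
Difference of group means in log2 units (horizontal axis) for the 10 genes (vertical axis) in the 3 pairwise comparisons of 2 samples each. Dots are estimates, red above and blue below 0, and lines are 95% intervals of the limma fit. Intervals clear of 0 are those of Casp1 and Pycard for Auto.Pos minus Auto.Neg and of Il18 against WT, and 0 differences passed the adjusted threshold.

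Against WT, the Auto.Pos cells read lower for Il18 and Pycard and higher for Casp1, Casp4 and Naip5, with no overlap between the samples of the groups. limma called 0 of 10 members and 0 of 20467 genes (0.00%). There was 1 member, Il18, at an unadjusted p under 0.05, against 1152 genes (5.63%). Groups that do not overlap were common in this comparison, with 29.6% of all genes (19.2% higher, 10.4% lower) against 5 of 10 members, 3 higher and 2 lower. The median was -0.04 over the members and 0.06 over all genes, with 5 members higher and 5 lower.

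Il18 averaged 1.18 ± 0.40 (SD, n = 2) in Auto.Pos and 2.21 ± 0.11 in WT. The difference was -1.03 (SE 0.34, 95% interval -1.90 to -0.15), 2.04-fold lower, with a limma adjusted p of 0.79 and an unadjusted p of 0.0292. Inside scan day 3 it was -1.24. In Auto.Pos 9 of 14 macrophage and monocyte markers read lower, with a median of -0.38. Inside scan day 3 their mean was 1.30 in Auto.Pos and 2.20 in WT. Neutrophil (8 of 12), plasma cell (5 of 6) and erythroid and platelet markers (5 of 9) also mostly read lower. B cell (6 of 9), T cell (6 of 9), NK cell (5 of 6) and dendritic cell markers (7 of 7) mostly read higher. The part of any of these lists in the Il18 difference was not tested.

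Casp1 differed by 0.84 (SE 0.33, 95% interval -0.01 to 1.68, limma adjusted p = 0.893), with 0.47 inside scan day 3. Casp4 differed by 0.90 (SE 0.44, limma adjusted p = 0.984), with 0.53 inside scan day 3 and 0.45 without Auto.Pos sample 1. The adaptor Pycard differed by -0.50 (SE 0.21, limma adjusted p = 0.916), and the difference inside scan day 3 was -0.69. Naip5 differed by 0.29 (SE 0.21, limma adjusted p = 1.00). Il1b overlapped between the groups, at a difference of -0.34 with a 95% interval of -1.14 to 0.46, and 0.015 without Auto.Pos sample 2.

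The Auto.Neg cells read lower than WT for both cytokines and for Nlrp3, again without a call. limma called 0 of 10 members and 0 of 20467 genes (0.00%). At an unadjusted p under 0.05 stood 1 member, Il18, against 941 genes (4.60%). The groups did not overlap for 3 of 10 members, all lower, against 25.0% of all genes and 9.57% in that direction. For Nlrp3 and Il1b this rests on the average of the arrays, since on the second arrays alone the groups overlapped. There Nlrp3 read 1.26 in WT sample 2, on the bright array, against 1.36 and 1.79 in Auto.Neg. Il1b read 1.75 on that array, against 1.74 and 2.33 in Auto.Neg. The median was -0.13 over the members and 0.04 over all genes, with 3 members higher and 7 lower.

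Il18 averaged 1.17 ± 0.52 (SD, n = 2) in Auto.Neg, a difference of -1.04 from WT (SE 0.34, 95% interval -1.92 to -0.17), 2.06-fold lower, with a limma adjusted p of 0.997 and an unadjusted p of 0.0279. Without Auto.Neg sample 1 the difference was -0.67. The Il18 probe lies 6.58 Mb from a Thy1 probe on chromosome 9, and the part of this position in the difference was not tested. Between the 4 Thy-1 knockout samples and the 4 others Il18 differed by -0.43 (exact permutation test, two-sided p = 0.343). Il1b averaged 1.86 ± 0.17 in Auto.Neg and 2.57 ± 0.24 in WT, a difference of -0.72 (SE 0.31, 95% interval -1.51 to 0.08, limma adjusted p = 1.00). With the scanner software's ratio it was -0.19, and the Il1b reference channel was above background on 2 of 16 arrays. Nlrp3 differed by -0.45 (SE 0.35, limma adjusted p = 1.00), with -0.20 without Auto.Neg sample 1. In Auto.Neg 12 of 14 macrophage and monocyte markers (median -0.49) 9 of 12 neutrophil markers (median -0.34) and 7 of 9 erythroid and platelet markers (median -0.36) read lower, and their part in the cytokine differences was not tested. The Auto.Pos and Auto.Neg comparisons with WT share the WT samples, so the lower Il18 in both is not 2 independent results, and Auto.Neg and WT shared no slide or scan day.

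Over the 8 samples Il1b ran with the macrophage and monocyte markers, and the part of these markers in its level was not tested. Pearson's r with the mean of the 14 markers was 0.84 (exact permutation p = 0.00561, 0.0561 after Benjamini-Hochberg adjustment over 10 relations) and Spearman's rho 0.81 (exact permutation p = 0.0218, adjusted 0.218). Without the 2 samples farthest from the median of the markers r was 0.72. For Il18 r was 0.59 (exact permutation p = 0.125, adjusted 0.334) and rho 0.43 (exact permutation p = 0.299, adjusted 0.499), with r at 0.79 without the farthest samples. For Casp1 r was 0.54 and for Casp4 0.57, and for Pycard -0.20. No batch held 6 samples, so these relations have no value within a batch. Relations with the other marker lists were not computed, so the relation of Il1b is not shown to be particular to this list. The erythroid and platelet markers, too, were lowest in Non-edited and Edited, at means of 1.80 and 1.82, against 2.52 to 3.67 in the other samples. The Il1b reference channel was above background on 2 of 16 arrays.

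**Figure D4:**
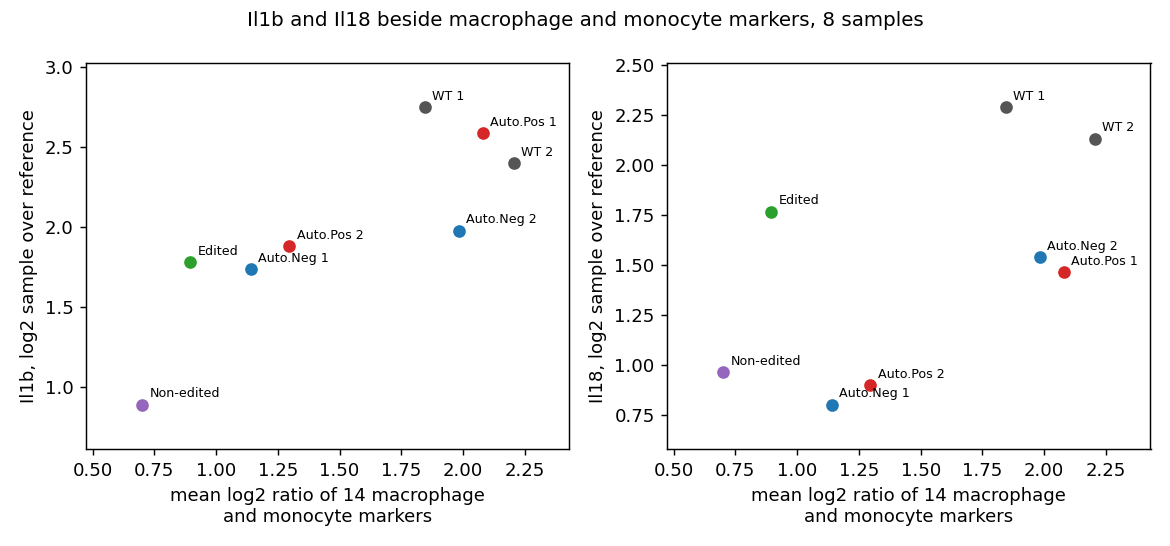
Log2 ratio of sample over reference for Il1b and Il18 (vertical axes) against the mean log2 ratio of 14 macrophage and monocyte markers (horizontal axis), 1 point per sample coloured by group. Non-edited is lowest on both axes for Il1b (0.89 and 0.70), and the WT samples are highest for Il18 at 2.29 and 2.13.

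The 4 samples with the Thy-1 knockout were set against the 4 without it. This split also separates samples that carry the Vk21-5 light chain transgene from those that do not, and knockout and transgene cannot be told apart. It is also largely a split by scan day, since 3 of the 4 knockout samples were scanned on day 4, which held 0 of the 4 others. Il1b read lower in the knockout samples, at 1.60 ± 0.48 (SD, n = 4) against 2.40 ± 0.38. The limma difference of group means was -0.89 (SE 0.23, adjusted p = 0.982, unadjusted p = 0.0103), and -0.48 with the scanner software's ratio. On scan day 2, which held 1 sample of each kind, Il1b read 1.98 in the knockout sample and 2.59 in the other. The plain difference of 4 against 4 samples was -0.81 (exact permutation test, two-sided p = 0.0571, where 0.0286 is the smallest p this design allows). The groups overlapped because Auto.Neg sample 2 lay above Auto.Pos sample 2. limma called 0 of 10 members against 3 of 20467 genes (0.0147%), and 1 member had an unadjusted p under 0.05 against 4.17% of genes. Groups did not overlap for 0 of 10 members, against 2.07% of genes. The macrophage and monocyte markers lay lower in the knockout samples for 13 of 14 genes (median -0.70), the neutrophil markers for 10 of 12 (median -0.57) and the erythroid and platelet markers for 9 of 9 (median -0.57). Their part in the Il1b difference was not tested.

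Edited and Non-edited cells had the same genotype and 1 sample each, so there is no replicate check, and a difference is described by its size in both dye orientations. Casp4 and Naip5 read more than 2-fold higher in Edited, and Casp1, Nlrc4, Naip2, Il1b and Il18 also read higher in both orientations. The 2-fold rule in both orientations was met by 2 of 10 members, both higher, and by 284 of 20466 genes (1.39%), of which 249 were higher (1.22%). The median difference was 0.68 over the members and -0.03 over all genes, with 8 members higher and 2 lower.

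Casp4 read 0.44 for Non-edited and 1.98 for Edited, a difference of 1.53 that came out as 1.53 in both orientations, or 2.90-fold. Naip5 read -1.59 and -0.23, a difference of 1.36, with 1.34 and 1.38 by orientation, or 2.57-fold. In the limma fit, where each of these samples is assumed to vary as much as samples within the other groups, the Naip5 difference had an adjusted p of 1.00 and an unadjusted p of 0.00588. Casp4 had an unadjusted p of 0.0540 in the same fit. Il1b differed by 0.89 (0.93 and 0.84 by orientation), Il18 by 0.80 (0.64 and 0.97), Casp1 by 0.69 (0.73 and 0.65) and Naip2 by 0.66 (0.54 and 0.79). The remaining 4 members differed by -0.07 to 0.21.

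The Edited sample stood apart for Naip5 and Naip2, where it was the highest of the 8. For Casp1, Casp4 and Il1b it was the Non-edited sample that stood at the end, as the lowest of the 8, and Edited lay inside the range of the others. The macrophage and monocyte markers read 0.70 for Non-edited and 0.89 for Edited, higher in Edited for 10 of 14 genes with a median of 0.10. The neutrophil markers read 1.43 and 1.12, higher in Edited for 6 of 12.

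**Figure D5:**
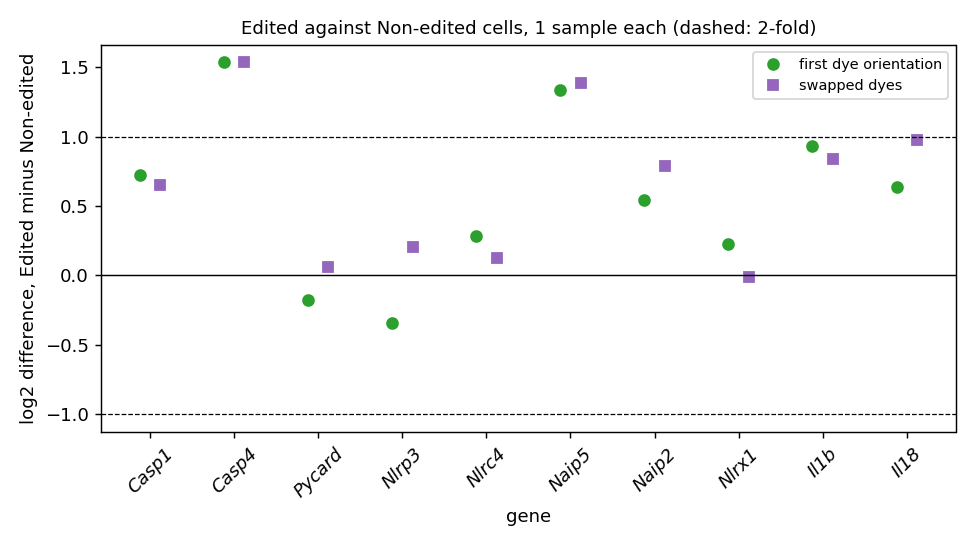
Edited minus Non-edited in log2 units (vertical axis) for the 10 genes (horizontal axis), 1 sample each. Circles and squares are the 2 dye orientations, and dashed lines mark 2-fold. Casp4 and Naip5 lie above the upper dashed line in both orientations, at 1.53 and 1.53 and at 1.34 and 1.38.

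Casp1 and Casp4, neighbours in the genome, varied together over the 8 samples. Pearson's r was 0.89 (exact permutation p = 0.00226, 0.102 after Benjamini-Hochberg adjustment over the 45 pairs of members) and Spearman's rho 0.90 (exact permutation p = 0.00456, adjusted 0.205). Without the 2 samples farthest from the median of Casp1, r was 0.72. The Casp1 and Pycard values ran in opposite directions, with r = -0.79 (exact permutation p = 0.0145, adjusted 0.325), rho = -0.81 (exact permutation p = 0.0218, adjusted 0.361) and -0.80 without the farthest samples. In part this relation restates the group difference, since both Auto.Pos samples were highest for Casp1 and lowest for Pycard. The samples farthest from the Casp1 median were Auto.Pos sample 1 and Non-edited, so Auto.Pos sample 2 stayed in. A value without both Auto.Pos samples was not computed. Il1b and Il18 had r = 0.69 (exact permutation p = 0.0516, adjusted 0.628). No pair of the 45 passed after adjustment, and too few samples shared a slide or scan day for a value within one.

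Since Casp1 and Casp4 varied together, the bases before their starts are shown, from the RefSeq table of GRCm38.p6, a build other than that of the array coordinates. Each window holds the 250 bases before the listed start, on the plus strand, at chr9:5298267-5298516 for Casp1 and chr9:5308599-5308848 for Casp4. Both strands were searched for GAAANNGAAA (a core of the interferon response element), TTCNNNGAA (the STAT type) and GGGNNNTTCC (the NF-kB type), and matches are in capitals.
Casp1 promoter: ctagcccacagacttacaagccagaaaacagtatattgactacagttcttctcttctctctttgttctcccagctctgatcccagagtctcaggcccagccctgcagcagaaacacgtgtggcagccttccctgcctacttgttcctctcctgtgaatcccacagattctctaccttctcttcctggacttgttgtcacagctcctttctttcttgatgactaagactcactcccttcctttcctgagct
Casp4 promoter: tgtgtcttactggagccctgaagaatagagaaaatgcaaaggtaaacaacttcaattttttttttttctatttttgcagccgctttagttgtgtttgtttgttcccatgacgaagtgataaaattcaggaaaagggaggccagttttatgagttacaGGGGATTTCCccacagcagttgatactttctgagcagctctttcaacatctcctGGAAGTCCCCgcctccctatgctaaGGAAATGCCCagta
The Casp4 window held 3 matches of the NF-kB type, and the Casp1 window held 0 matches of any of the 3 motifs. Of 27025 genes with a window of this length, 4.60% held at least 1 match of the NF-kB type and 5 genes, Casp4 included, held 3 or more. The STAT type was found in 7.18% of windows and the interferon type in 3.04%. All 10 members had a window, and the other match among them was 1 of the STAT type before Nlrx1. A match is a description of these letters and not evidence of binding.

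The genes whose pattern was most like that of Casp1 over the 8 samples, among 20461 genes, were Acpp (r = 0.99), Megf9 (0.98) and Gsto1 (0.98). For Nlrc4 they were Ndn (0.98), Rnps1 (0.97) and AK037854 (0.97). For Casp4 they were Hdac9 (0.97) and the unnamed probes A_52_P988832 (0.99) and A_52_P1029561 (0.96). These were picked as the highest of many correlations over 8 samples, and genes are not independent replicates.

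The rest of the pathway was read from 4 lists, in which limma called 0 genes in any of the 5 comparisons. Other sensors and NLR genes had 15 measured genes, with 11 higher and 4 lower in Auto.Pos than in Auto.Neg (median 0.07). The caspases and cell death effectors also had 15, with 6 higher and 9 lower (median -0.12). Activators and regulators had 29, with 16 higher and 13 lower (median 0.04). The IL-1 and IL-18 family had 19, with 10 higher and 9 lower (median 0.11). At an unadjusted p under 0.05 there were 1, 0, 1 and 0 of these in that comparison, and 2, 0, 5 and 1 in Auto.Pos against WT, where 5.63% of all genes reached it.

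In the lists, Nod1, a sensor of peptidoglycan fragments, read 2.89 and 3.23 for Auto.Neg, 5.45 and 5.08 for Auto.Pos, 4.04 and 3.66 for WT, 1.60 for Non-edited and 4.07 for Edited. Like Casp1 it was highest in both Auto.Pos samples and lowest in Non-edited. Its Auto.Pos minus Auto.Neg difference was 2.20 (SE 0.26, limma adjusted p = 0.485). Nod2, its relative, read 0.95 and 1.03 for Auto.Neg, -0.01 and 0.81 for Auto.Pos, and 1.35 and 1.59 for WT.

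Among regulators, Serpinb9, an inhibitor of granzyme B that is also reported to bind caspase-1, read -0.57 and -0.96 for Auto.Neg, -1.26 and -0.93 for Auto.Pos, and 0.07 and 0.18 for WT. Gbp5, a guanylate-binding protein that promotes Nlrp3 assembly, read 3.39 and 3.58 for Auto.Neg, 3.43 and 3.08 for Auto.Pos, and 4.41 and 4.05 for WT. Ctsb, the lysosomal protease cathepsin B, read -0.90 and -0.30 for Auto.Neg, -0.52 and -0.91 for Auto.Pos, and 0.06 and 0.00 for WT. All of these read higher in WT than in Auto.Neg and Auto.Pos. The limma adjusted p-values for Auto.Pos against WT were 0.441, 0.583 and 0.862. These genes were named because their groups differed, so their likeness to Il18 is not a separate result. Of the 29 activators and regulators, 8 read lower and 5 higher in Auto.Pos than in WT without overlap, against 10.4% and 19.2% of all genes. In Non-edited and Edited, Serpinb9 read -0.75 and -0.63 and Ctsb -0.89 and -0.49, below WT. Gbp5 read 3.92 and 4.28 there, and its Edited value lay above WT sample 2.

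Brcc3, a deubiquitinase that acts on Nlrp3, read -1.05 and -0.83 for Auto.Neg, -0.94 and -0.85 for Auto.Pos, and -0.46 and -0.28 for WT. Hsp90aa1, a chaperone that stabilises NLR proteins, lay the other way, at -1.92 and -1.71 for Auto.Neg, -1.38 and -1.79 for Auto.Pos, and -2.53 and -2.35 for WT. Panx1, a channel that releases ATP, read 1.67 and 2.04 for Auto.Neg and 1.39 and 1.12 for Auto.Pos. Il1r2, the decoy receptor for IL-1, read 1.15 and 1.50 for Auto.Neg, 1.09 and 2.41 for Auto.Pos, and 0.26 and 0.06 for WT. It read -0.11 for Non-edited and 0.01 for Edited, near WT, and was well above background on 13 of 16 arrays.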

How the data were processed

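The scanner files hold raw spot and background intensity in 2 channels, written, per the file headers, by Agilent Feature Extraction 9.1.1.1, 9.1.3.1 and 9.5.1.1. They also hold that software's log10 ratio of red over green, made per the file headers with background subtraction and dye normalization. The deposited series table holds 1 log2 ratio per array, for which the submitters' processing notes name limma, with no version or step. Its columns were compared with the arrays: 6 of 16 matched best the array of their label, so it served only as an alternative. Its scale was log2, and its direction was mixed between columns. It has 0 columns of no sample. Per the labels' protocols, total RNA was amplified before it was labelled with Cy3 or Cy5.

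Intensity was analysed with limma 3.58.1 under R 4.3.3. The background step was normexp (offset 50) on mean signal and median background, followed by loess within arrays with control spots at weight 0 and outlier spots dropped. Ratios were turned to sample over reference, spots of a probe and then the 2 arrays of a sample were averaged, and probes that the scanner software marked as well above background in the sample channel on both arrays of at least 2 of 8 samples were kept (29637 of 41174). The brightest probe stood for a gene. limma was fitted to 8 samples with 1 mean per group and 3 residual degrees of freedom. The variance of each gene was drawn towards a value shared by all genes, with 2.11 prior degrees of freedom. The p-values were adjusted over all 20467 genes by Benjamini-Hochberg, with calls at 0.05. Scripts were tested on simulated data.

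Between 61.9% and 81.9% of probes per array had a sample signal well above background, and the number of samples limits the precision. Lists were written from general knowledge. The members and lists were chosen with earlier results of these data known. List genes were named where the groups did not overlap and differed by at least 1, or at an unadjusted p under 0.05, in a pairwise comparison, at most 8 per list. Likeness was computed for Casp1 and for the 2 members of largest SD. Same-numbered samples had deviations from their group means that correlated at -0.79, -0.28 and 0.25, so the numbers do not pair samples. Protein sequences were not used here.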

Additional observations from a re-analysis of the deposited data

How the results depend on the processing

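With 2 samples a group and 3 residual degrees of freedom, the precision was low, and a p that misses the threshold does not show that groups were alike. Il1b rests on a reference channel near background. The samples of slide 2 stand apart, and no slide held WT beside another group.

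Under the alternatives that use the scanner files, the 10 members gave 0 calls in each comparison tested. The replicate block, with the sample number as a block, also gave 0 member calls, with 0 calls over all genes in each pairwise comparison. In the series table read by its labels, 5 members were called in Auto.Pos against Auto.Neg and 5 in Auto.Neg against WT, where 7704 and 6964 of all genes were called, and 835 in the Thy-1 knockout comparison. There the Naip5 difference of Auto.Pos and Auto.Neg turned to -1.44, and this table's column labels mix groups. The same table gave 0.27 for Il1b in Auto.Pos against WT. Of the member differences the report gives by gene name, 3 others, all of overlapping groups, changed sign. For Il18, Auto.Pos minus Auto.Neg came to -0.10 with median centring, -0.055 with scale normalization, -0.083 with the scanner software's ratio, -0.060 with the rematched table, -0.032 with slide as a random block and from -0.36 to 0.38 without 1 sample. Without 1 sample the same comparison ran from -0.31 to 1.16 for Nlrc4, and Auto.Pos minus WT ran from -0.70 to 0.015 for Il1b. Without 1 sample Casp1 (Auto.Pos minus Auto.Neg) ran from 0.51 to 1.23 and Pycard from -0.75 to -0.45.

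Counts over all genes moved with the settings. Slide as a random block on the 16 arrays called 99, 280, 172 and 110 genes in the 3 pairwise and the knockout comparison and 6 in Edited against Non-edited, with 0 members among them. Protocol as a block called 6 in Auto.Pos against Auto.Neg. The scanner software's ratio called 15 and scale normalization 6 in Auto.Pos against WT, the rematched table, added after seeing the data, 14. The knockout comparison gave 6 with that ratio, 6 with probes above background on all 16 arrays and 0 without slide 2, an alternative also added after seeing the data. Leaving out any 1 sample gave 0 calls in the pairwise comparisons. Median centring shifted the median difference of all genes by -0.12 in Auto.Pos against WT and 0.12 in Edited against Non-edited. It gave -0.98 for Pycard in Auto.Pos against Auto.Neg and 0.10 for Naip5 against WT, while scale normalization gave 0.39 for Casp4 and 0.45 for Casp1 against WT. The cause of these shifts was not tested.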
